A study of Homo sapiens with 12 samples.

Results

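CD82, SULF2, PLXNB3, BLNK, NECTIN4, SUGCT and PNMA8A are 7 genes chosen by their large rises in A549 cells treated with RG7112, out of 20595 genes in the deposited table. All 7 were found in the table by their Ensembl identifiers. The samples were 2 human lung adenocarcinoma lines with MDM2 amplification, A549 (p53 WT) and H1792 (p53 mutant), each given DMSO or 1 μM RG7112, an MDM2 inhibitor of the nutlin family, for 48 h. Each of the 4 groups had 3 replicates, which made 12 samples. The names of the columns in the table carry 0.1 μM, so the dose rests on the labels and the methods, and where the paper introduces its RNA sequencing it swaps the p53 status of A549 and H1792. Each p53 status was represented by a single line, so p53 status and cell line cannot be told apart. The values are estimated counts per gene, given here also as CPM (read counts relative to the library total, scaled by TMM over the 12 samples).

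Because the genes were selected on A549, their values in A549 are a description without a test, and H1792 is where their response was tested. They were picked as surface genes, and 4 of them code for proteins at the cell surface or outside the cell. CD82 is a tetraspanin, a membrane protein that organizes integrins and other receptors and is known as a suppressor of metastasis. PLXNB3 is a plexin, a receptor for semaphorins, which guide cell movement. NECTIN4 is an adhesion molecule of cell junctions and an antibody-drug target in carcinoma. SULF2 is a secreted endosulfatase that trims sulfate from heparan sulfate chains at the cell surface, which changes how growth factors bind there. The other 3 are not surface proteins: BLNK is a cytoplasmic adaptor of B cell receptor signaling, SUGCT is a mitochondrial enzyme that joins CoA to glutarate, and PNMA8A belongs to an intracellular family of paraneoplastic antigens. p53, when MDM2 no longer holds it, binds a DNA element made of a pair of half-sites and switches on genes such as CDKN1A and MDM2 itself.

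The 7 genes lie on 7 chromosomes. In GENCODE v29 (GRCh38), CD82 is at chr11:44564427-44620363 and PLXNB3 at chrX:153764196-153779346, both on the plus strand. NECTIN4 (chr1:161070995-161089599), SULF2 (chr20:47656348-47786616), BLNK (chr10:96191702-96271587) and PNMA8A (chr19:46466491-46471563) are on the minus strand, and SUGCT (chr7:40134977-40860763) is on the plus strand. RefSeq (GRCh38.p14) gave 10 windows of 250 bases upstream of a start for the 7 genes, all of which were matched, against 35116 windows in all. Of the 7, only BLNK held a match to the p53 half-site, with 2 matches, at bases 184 to 175 and 11 to 2 before the start, and 5.57% of all windows held at least one. The full p53 element was in none of the 10 windows and in 0.0256% of all windows. Only exact matches were counted, with the half-site as RRRCWWGYYY (R is A or G, W is A or T, Y is C or T). Only these 250 bases were searched, so the lack of a match does not show that a gene has no p53 element. The GC box (GGGCGG, both strands) was in a window of CD82, SULF2, PLXNB3, NECTIN4 and SUGCT, and 42.6% of all windows held it. The sequence of BLNK is shown because it alone held the half-site. Those of CD82 and PLXNB3 are shown because these are the 2 genes with enough counts to be tested in both lines. Capitals mark half-sites (BLNK) or GC boxes (CD82, PLXNB3, where both boxes overlap) in these sequences. Each is read 5′ to 3′ on the strand of the gene, and the last 72 bases of the CD82 window and 53 of the PLXNB3 window are left out, since an exon covers them. In the BLNK window an exon of GENCODE v29 covers the last 18 bases, among them the half-site at bases 11 to 2.
BLNK, chr10:96271570-96271819, minus strand: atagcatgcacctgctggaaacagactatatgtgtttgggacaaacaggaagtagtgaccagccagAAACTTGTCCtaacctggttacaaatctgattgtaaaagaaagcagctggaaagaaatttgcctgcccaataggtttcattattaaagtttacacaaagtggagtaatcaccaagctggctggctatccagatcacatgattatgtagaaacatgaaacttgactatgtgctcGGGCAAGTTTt
CD82, chr11:44565413-44565590, plus strand: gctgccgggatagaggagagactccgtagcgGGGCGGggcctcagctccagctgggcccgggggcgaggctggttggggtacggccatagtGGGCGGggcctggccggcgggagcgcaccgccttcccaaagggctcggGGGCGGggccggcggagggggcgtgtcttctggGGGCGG
PLXNB3, chrX:153763999-153764195, plus strand: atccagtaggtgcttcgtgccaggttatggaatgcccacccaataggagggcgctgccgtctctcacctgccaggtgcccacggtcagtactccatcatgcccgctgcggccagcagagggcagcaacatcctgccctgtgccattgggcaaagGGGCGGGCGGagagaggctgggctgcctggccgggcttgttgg
The BLNK window stood apart from the others in base composition as well, with 40.4% GC and 1 CpG, against medians of 58% and 11 over all windows. That of CD82 had 77.2% GC and 26 CpG. A match describes these letters only and says nothing on binding in these cells.

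Totals per sample ranged from 2011916 to 6218825 counts in A549 and from 2610822 to 5180412 in H1792. The line labels were checked against markers fixed for epithelial, B and other cells. Keratins KRT7, KRT8, KRT18 and KRT19 were high in A549, where the 11 epithelial markers summed to between 14457 and 24056 CPM over the 6 samples, against 1069 to 2185 CPM in H1792. Most of that sum was KRT8, at 11714 CPM in A549 and 990 CPM in H1792 with DMSO. EPCAM went the other way, at 0.668 CPM in A549 and 2.26 CPM in H1792 with DMSO. CDH1 was at 12.4 CPM in A549 and 0.428 CPM in H1792 with DMSO. The lung markers NKX2-1, SFTPB and SFTPC had at most 2 counts in any sample, while NAPSA had up to 26, in A549. H1792 was high in the collagen genes COL1A1 (279 CPM with DMSO) and COL1A2 (1116 CPM). On the same list as the collagens, DCN and PDGFRB were at only 0.552 and 0.597 CPM in H1792 with DMSO. With RG7112 PDGFRB was at 4.65 CPM there (log2 fold change 2.93, edgeR adjusted p = 0.022), a call lost under 6 of 16 alternatives. CD14, also on that list, was at 21.9 CPM in A549 and 0.88 CPM in H1792 with DMSO. The p53 targets CDKN1A and MDM2, taken as a check of the treatment, rose in A549. CDKN1A went from 37.1 ± 11.3 to 444 ± 430 CPM (SD, n = 3; log2 fold change 3.58, edgeR quasi-likelihood adjusted p = 0.0252), a call lost without any one of the DMSO replicates and with the replicate block (3.12, edgeR adjusted p = 0.0672). MDM2 went from 8.52 ± 4.98 to 69 ± 9.25 CPM (log2 fold change 2.99, edgeR adjusted p = 0.0102), a call lost without DMSO replicate 2. Without 1 sample in turn, the log2 fold change of CDKN1A ranged from 2.41 to 3.94 and that of MDM2 from 2.62 to 3.38. In H1792 their log2 fold changes were 0.15 (edgeR adjusted p = 0.882) and -0.05 (edgeR adjusted p = 0.928).

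In A549 all 7 genes were higher in every RG7112 sample than in every DMSO sample. They fell into 2 kinds: CD82, SULF2 and PLXNB3 were already read with DMSO, whereas BLNK, NECTIN4, SUGCT and PNMA8A had 3 counts or fewer in each DMSO sample. Since the genes were picked on this contrast, nothing is read from the count of 7 of 7. Of the 10739 genes tested in A549, 16.2% did not overlap and were higher with RG7112, and 3.18% were called upregulated (adjusted p under 0.05 and log2 fold change over 1).

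**Figure D1:**
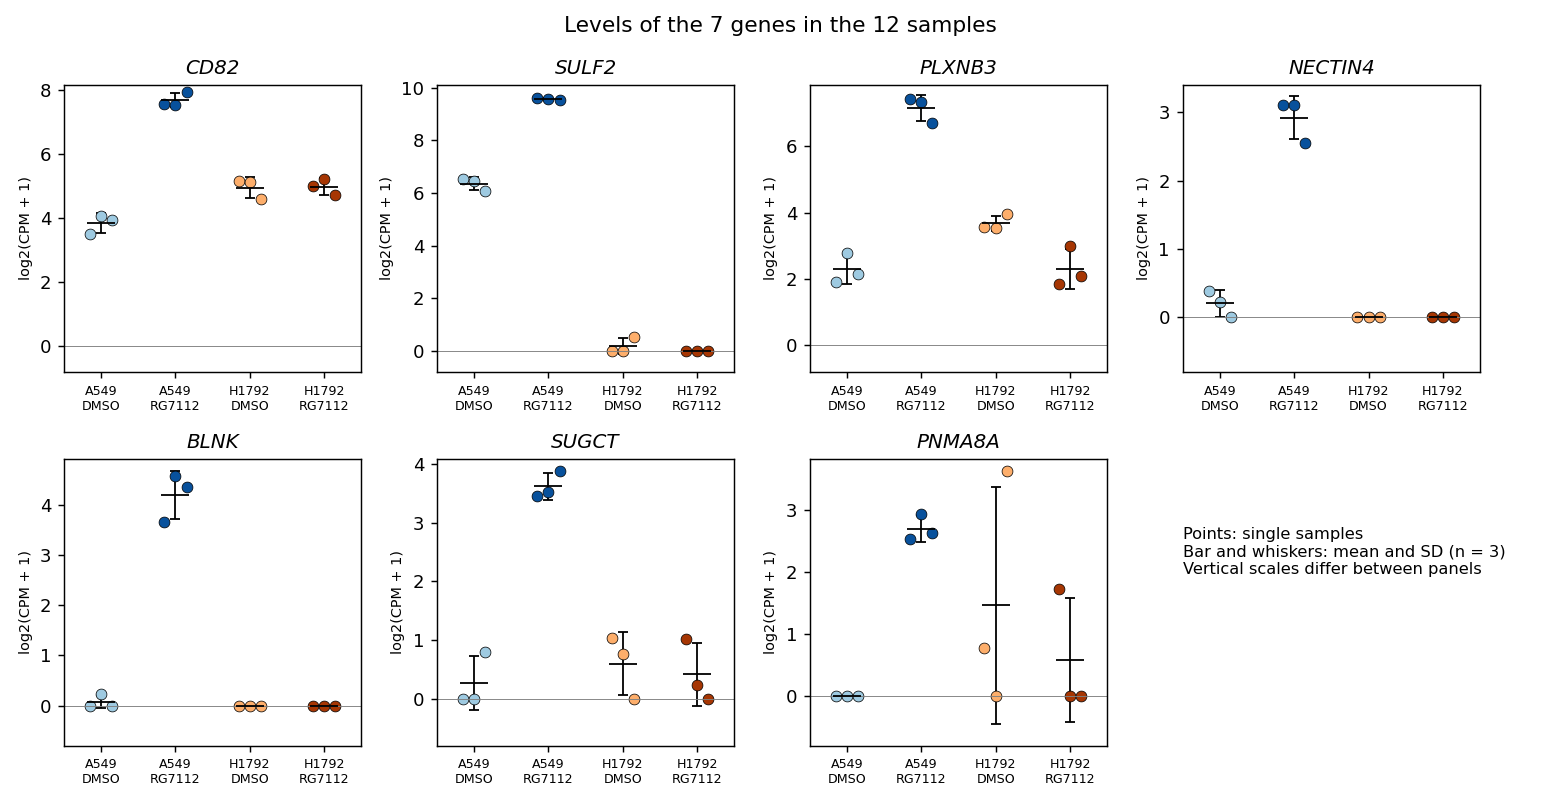
Level of each of the 7 genes in the 12 samples, as log2(CPM + 1), with points for samples and a bar with whiskers for the mean and SD of 3 replicates; vertical scales differ between panels. All 3 A549 RG7112 samples sit above all A549 DMSO samples in each panel, while in H1792 only PLXNB3 has treatments that do not overlap, with RG7112 the lower.

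Among the receptors and adhesion molecules, CD82 was at 10.3, 16 and 14.4 CPM in the DMSO replicates of A549 and at 190, 186 and 245 CPM with RG7112. The lowest treated sample was 11.6 times the highest control. The mean rose from 13.6 ± 2.95 to 207 ± 32.7 CPM (SD, n = 3), which is 15.3-fold, and the fitted log2 fold change was 3.92 ± 0.23 (SE).

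PLXNB3 was at 2.8, 5.96 and 3.48 CPM with DMSO and at 172, 161 and 104 CPM with RG7112. Its lowest treated sample, replicate 3, was still 17.5 times its highest control. The mean went from 4.08 ± 1.66 to 145 ± 36.3 CPM, 35.7-fold, with a log2 fold change of 5.10 ± 0.36 (SE), the fifth largest of the genes tested in A549. SRPK3, a kinase gene that overlaps PLXNB3 on the same strand, had a log2 fold change of 0.89 (edgeR adjusted p = 0.31).

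NECTIN4 had 1, 1 and 0 counts in the DMSO samples and 49, 16 and 18 counts with RG7112, or 7.58, 7.61 and 4.88 CPM. With 2 counts in all controls, the ratio of summed counts, scaled by library size, was 44.4, with an exact 95% interval from 11.9 to 372 that covers counting error only. Since the gene was picked on this contrast, the interval is no test of the rise, and the same holds for BLNK and SUGCT below. Its level in treated cells, 6.69 ± 1.57 CPM, was below that of CD82 and PLXNB3 per length as well.

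SULF2, the extracellular enzyme, had the highest level per length of the 7 in both treatments of A549. It was at 92.8, 87.3 and 66.1 CPM with DMSO and at 788, 759 and 738 CPM with RG7112, so the treated samples lay close together. The mean went from 82.1 ± 14.1 to 761 ± 25.2 CPM, 9.28-fold, with a log2 fold change of 3.21 ± 0.17 (SE). NCOA3, which overlaps SULF2 on the other strand, had a log2 fold change of -0.32 (edgeR adjusted p = 0.507).

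Of the intracellular members, BLNK had 0, 1 and 0 counts with DMSO and 75, 48 and 72 with RG7112. These are 11.6, 22.8 and 19.5 CPM, and the ratio of summed counts was 208, with a counting interval from 37 to 8277 that is wide because it rests on 1 count. The overlapping gene on the other strand, ZNF518A, had a log2 fold change of -0.66 (edgeR adjusted p = 0.596). BLNK is best known from B cells, whose markers MS4A1, PAX5 and CR2 had no count in any of the 12 samples. The B cell markers reported here summed to between 2.04 and 6.21 CPM with DMSO and between 1.43 and 14.4 CPM with RG7112 in A549, most of it CD22 (4.46 and 5.91 CPM on average). CD79B, a chain of the B cell receptor complex, had 0, 1 and 0 counts with DMSO and 10, 0 and 4 with RG7112, and CD79A had none with DMSO and 2, 0 and 2 with RG7112. Their part in the result was not tested.

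SUGCT had 0, 0 and 3 counts with DMSO and 65, 22 and 51 with RG7112, or 10, 10.5 and 13.8 CPM. The ratio of summed counts was 49.2 (counting interval 16.5 to 241). PNMA8A had no count in any DMSO sample and 31, 14 and 19 counts with RG7112, or 4.79, 6.66 and 5.15 CPM. Against a floor of 3 counts over the DMSO group it was at least 22.8-fold higher, and its mean in treated cells was 5.53 ± 0.99 CPM.

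The order by fold was not the order by reads gained. By fitted log2 fold change, PNMA8A, BLNK, SUGCT, NECTIN4 and PLXNB3 took ranks 1 to 5 of the genes tested in A549, in this order, with CD82 at rank 19 and SULF2 at rank 39. The ranks of the first 4 depend on the small count that the fit adds to samples near 0. By CPM gained, which is not scaled by length, SULF2 was at rank 29 with 679 CPM, CD82 at rank 113 with 193 CPM and PLXNB3 at rank 168 with 141 CPM. The other 4 gained between 5.53 and 17.9 CPM and ranked from 1260 to 2621.

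**Figure D2:**
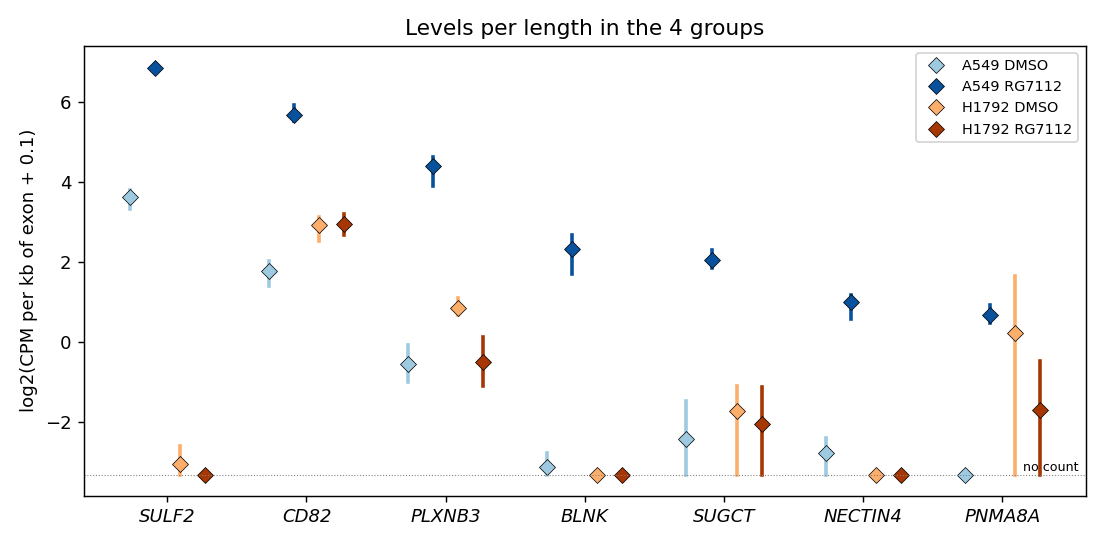
Level per length of the 7 genes in the 4 groups, as log2(CPM per kb of exon + 0.1), with a diamond for the mean of 3 replicates and a line from the lowest to the highest. In treated A549 cells SULF2 was at 114 CPM per kb and PNMA8A at 1.5, and BLNK and NECTIN4 had no count in H1792.

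Scaled by exon length, the order in treated A549 cells was SULF2 at 114 ± 3.78 CPM per kb, CD82 at 51.1 ± 8.06, PLXNB3 at 20.8 ± 5.18, BLNK at 4.92 ± 1.58, SUGCT at 4.01 ± 0.724, NECTIN4 at 1.91 ± 0.448 and PNMA8A at 1.5 ± 0.268 (SD, n = 3). The ranges of the 3 highest did not overlap with each other or with the rest. BLNK and SUGCT overlapped in this order, as did NECTIN4 and PNMA8A.

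For SULF2, CD82 and PLXNB3, H1792 differed from A549 already with DMSO, whereas BLNK, NECTIN4, SUGCT and PNMA8A overlapped between the lines there. SULF2 had 1 count in the 6 samples of H1792 together, in a DMSO sample, against 1077 counts in A549 with DMSO, which is 779 times more for the depth of the DMSO samples (counting interval 140 to 30811). CD82 and PLXNB3 were higher in H1792, where CD82 was at 34.8, 33.8 and 23.1 CPM and PLXNB3 at 10.9, 10.6 and 14.4 CPM with DMSO. These levels were 2.25 and 2.93 times those of A549. With RG7112 the order was turned: CD82 was 6.66 times and PLXNB3 34.2 times higher in A549. Since the rule used A549, these ratios are given without a test.

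In H1792 none of the 7 genes was called upregulated, and only CD82 and PLXNB3 had enough counts to be tested. CD82 was at 31.4, 36.6 and 25.3 CPM with RG7112, overlapping the controls. Its mean of 31.1 ± 5.63 CPM with the drug stood beside 30.6 ± 6.52 CPM without it (SD, n = 3). The log2 fold change was 0.10 ± 0.22 (SE; edgeR adjusted p = 0.76), with a 95% interval from -0.42 to 0.62. The exact permutation test of log2(CPM + 1), two-sided, gave p = 0.9. Of the 9914 genes tested in H1792, 10.3% were called upregulated and 4.34% downregulated, against 3.01% downregulated in A549.

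PLXNB3 fell in H1792, from 11.9 ± 2.09 to 4.25 ± 2.34 CPM (SD, n = 3). It was at 2.58, 6.92 and 3.25 CPM with RG7112, below all 3 controls, as 53.3% of the genes tested in H1792 also had treatments that did not overlap. The log2 fold change was -1.38 ± 0.43 (SE), with an edgeR adjusted p of 0.0454 and a 95% interval from -2.40 to -0.37. The exact permutation test gave p = 0.1, the smallest that 3 samples against 3 allow. The call stood near its threshold. With library size alone, no filter or the replicate number as a block it was not made either. It was lost with a correction for GC content (log2 fold change -0.86, edgeR adjusted p = 0.196), and the GC content of PLXNB3 was 65.1%, against a median of 49.3% over the genes tested in A549. It was also lost when any sample other than RG7112 replicate 2 was left out (edgeR adjusted p from 0.08 to 0.136). The log2 fold change was below 0 in each of these fits.

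**Figure D3:**
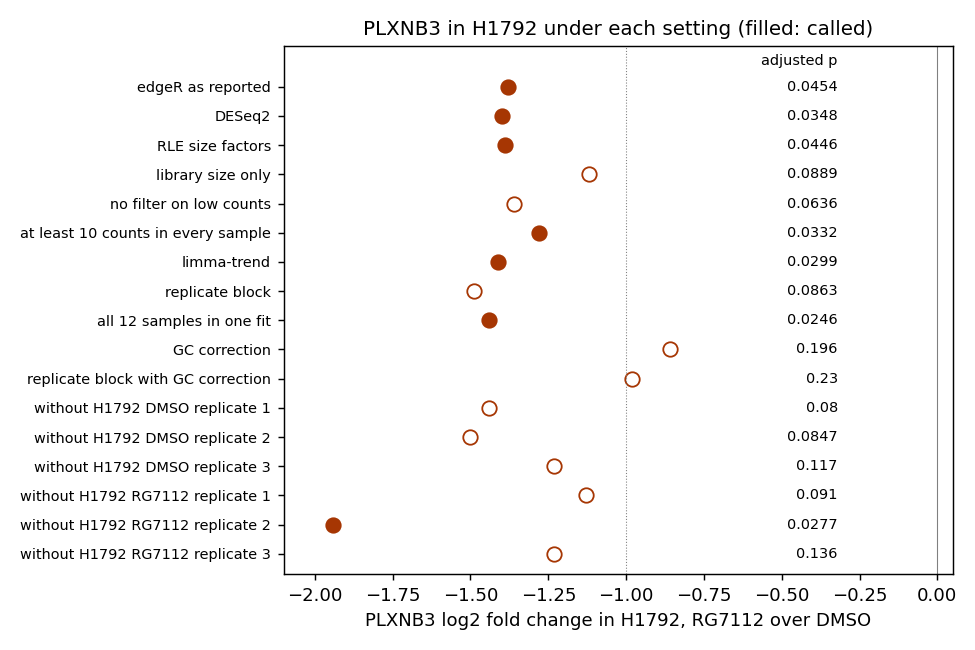
Log2 fold change of PLXNB3 in H1792 (RG7112 over DMSO) under each setting, with the adjusted p at the right, filled where it was called and open where it was not. The value is -1.38 as reported and ranges from -1.94 without RG7112 replicate 2 to -0.86 with the GC correction.

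Of the other 5 genes, SULF2, BLNK, NECTIN4 and SUGCT had at most 4 counts in any sample of H1792, and PNMA8A was read in 3 of the 6. BLNK and NECTIN4 had no count in any of the 6 samples, which allows up to 0.316 CPM over the DMSO samples and 0.217 CPM over the RG7112 samples (3 counts over the group, counting error only). SUGCT had 3, 3 and 0 counts with DMSO and 4, 1 and 0 with RG7112 (exact permutation p = 0.8). PNMA8A had 2, 0 and 26 counts with DMSO and 9, 0 and 0 with RG7112 (exact permutation p = 0.7), so that a single DMSO sample held most of its counts. At 11.3 CPM that sample was above all treated A549 samples of PNMA8A. With RG7112 the summed totals of H1792 (12541476 counts) and A549 (12281384 counts) were alike, and the level in A549 was at least 82.8 times that in H1792 for BLNK, 30.8 times for NECTIN4 and 3508 times for SULF2, against a floor of 3 counts over the H1792 group.

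The size of the gap between the lines is again a description. The log2 response of A549 exceeded that of H1792 by 3.90 ± 0.32 (SE) for CD82 and by 6.54 ± 0.55 (SE) for PLXNB3. Over all 11666 genes fitted together, 21.8% differed in response between the lines (edgeR interaction, adjusted p under 0.05). With library size alone as the scaling, the median log2 response of all tested genes in H1792 moved from 0.01 to 0.27, and PLXNB3 relative to that median stayed at -1.39. After the GC correction PLXNB3 relative to the median was at -0.78.

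The families and pathways of the 7 genes, 143 other genes in all, are counted next. In A549, 6 of the 85 tested were called upregulated and 1 downregulated, and in H1792 8 of 70 were called upregulated and 3 downregulated. For upregulated genes that is to be read against 3.18% and 10.3% of all genes, and for downregulated genes against 3.01% and 4.34%. In H1792 both counts were near these shares.

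**Figure D4:**
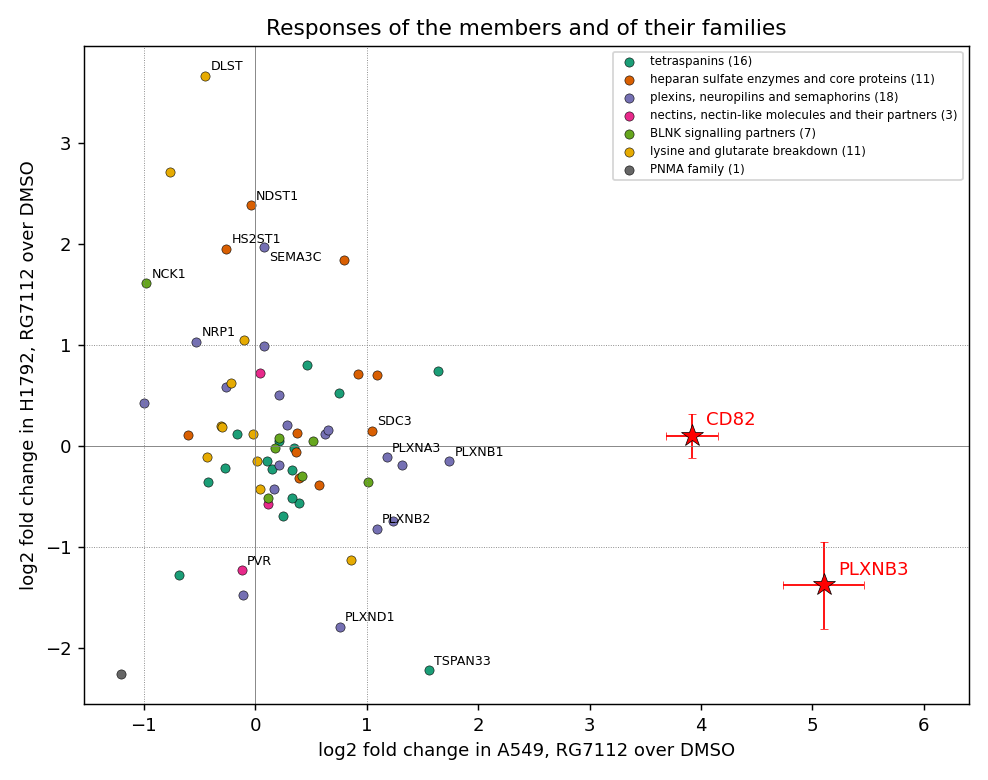
Log2 fold change in A549 (horizontal) and in H1792 (vertical) for family genes tested in both lines, coloured by list with the number of genes in the key, and for CD82 and PLXNB3 (stars, with SE); dotted lines mark a log2 fold change of 1 either way, and genes called in either line are named. CD82 (3.92) and PLXNB3 (5.10) lie to the right of every family gene drawn. Since both were picked for large rises in A549, nothing is read from this position.

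Beside CD82, 23 tetraspanins were tested in A549, with a median log2 fold change of 0.33 against -0.01 over all genes. TSPAN10 rose from 34.3 ± 4.88 to 169 ± 43.1 CPM (log2 fold change 2.29, edgeR adjusted p = 0.00197), and UPK1B, a uroplakin, fell from 11.1 ± 1.67 to 4.46 ± 0.165 CPM (log2 fold change -1.31, edgeR adjusted p = 0.042), a call lost without any one sample (-1.42 to -1.22). CD9 and CD81, the tetraspanins found on most cells, had log2 fold changes of 0.11 (edgeR adjusted p = 0.747) and -0.42 (edgeR adjusted p = 0.652). In H1792 1 of 16 tested tetraspanins was called downregulated, against 4.34% of all genes. It was TSPAN33, which fell by 2.22 on the log2 scale (edgeR adjusted p = 0.0106).

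Beside PLXNB3, 21 plexins, neuropilins and semaphorins were tested in A549, of which 16 had a log2 fold change above 0 and 5 below. Calls as upregulated numbered 4, against 3.18% of all genes. PLXNA3 went from 49.5 ± 7.9 to 112 ± 3.08 CPM (log2 fold change 1.18, edgeR adjusted p = 0.00826) and PLXNB2 from 364 ± 59.8 to 773 ± 57.7 CPM (log2 fold change 1.09, edgeR adjusted p = 0.0081), the latter not called without DMSO replicate 1 (0.96) or with the GC correction. SEMA3B, a secreted semaphorin, rose by 1.76 (log2, edgeR adjusted p = 0.00195), as did PLXNB1 by 1.74 (edgeR adjusted p = 0.0404), which is named here after its value was seen and lost its call without any of 5 samples in turn (1.45 to 2.18). In H1792 PLXNA3, PLXNB1 and PLXNB2 were not called and SEMA3B was too low to be tested, while PLXND1 fell by 1.79 on the log2 scale (edgeR adjusted p = 0.00278). NRP1 rose there by 1.03 (log2, edgeR adjusted p = 0.00578) and SEMA3C by 1.97 (edgeR adjusted p = 0.0128), and the call of NRP1 was lost without any of 4 samples in turn (0.93 to 1.17), with all 12 samples in one fit (0.95) and with the GC correction (0.66). SEMA3D was also called there, at 2.62 (edgeR adjusted p = 0.0408), and is named after its value was seen, a call lost without any of 5 samples in turn (2.16 to 3.91), with no filter (2.64), with the replicate block (2.75) and with the GC correction (1.97). SEMA5A, the known ligand of PLXNB3, had no count in any of the 12 samples.

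The heparan sulfate genes, which make the chains that SULF2 edits, gave 1 gene of 12 called upregulated in A549, against 3.18% of all genes. That was SDC3, a core protein, with 62.5 ± 5.15 and 130 ± 15.3 CPM (log2 fold change 1.05, edgeR adjusted p = 0.00904), a call lost without any of 3 samples in turn (0.96 to 1.12 over all 6), with library size only (0.97) and with the GC correction (0.89). In H1792, 3 of 12 were called upregulated, against 10.3% of all genes: HS2ST1 by 1.95 (edgeR adjusted p = 0.00506), HS6ST2 by 1.52 (edgeR adjusted p = 0.00303) and NDST1 by 2.38 (log2, edgeR adjusted p = 0.018), the last lost without any of 4 samples in turn (2.11 to 2.84) and with the replicate block (2.31). HS2ST1 was not called with the block and the GC correction together (1.31). SULF1, the paralog of SULF2, had at most 2 counts in any sample.

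None of the 6 nectins and partners tested in A549 was called, with NECTIN2 at 0.12 and NECTIN3 at 0.89 (log2, edgeR adjusted p = 0.694 and 0.281). In H1792, PVR fell by 1.23 on the log2 scale (edgeR adjusted p = 0.00428) and was not called with library size only (-0.98). It was the 1 called of 3 tested, against 4.34% of all genes called downregulated. Of NECTIN1, too low to be tested in either line, A549 had 8, 11 and 7 counts with DMSO and 0, 0 and 3 with RG7112. The signaling partners of BLNK gave no call among 11 tested in A549: the kinase SYK, which phosphorylates BLNK, had at most 7 counts in any sample, and PLCG2, which binds it, had a log2 fold change of -0.55 (edgeR adjusted p = 0.803). In H1792 the adaptor NCK1 rose by 1.61 (log2, edgeR adjusted p = 0.0391), a call lost without any of 5 samples in turn (1.30 to 2.32), with the GC correction (0.94) and with the replicate block (1.76).

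The lysine and glutarate breakdown genes, to which SUGCT belongs, gave no call among 11 in A549, with a median log2 fold change of -0.22. GCDH, the glutaryl-CoA dehydrogenase next to SUGCT in this pathway, was at 0.86 (edgeR adjusted p = 0.319). In H1792 DLST rose by 3.66 (log2, edgeR adjusted p = 0.00305), from 6.29 ± 1.77 to 76.7 ± 31.2 CPM. It was the 1 call of 12, against 10.3% of all genes called upregulated. MOAP1 was the only PNMA family gene tested in either line, at -1.20 in A549 and -2.26 in H1792 (log2, edgeR adjusted p = 0.57 and 0.218). PNMA1 was not analysed here. By comparison, 8 of 25 p53 targets were called upregulated in A549, with a median of 1.17, against 3.18% of all genes. In H1792, 4 of 19 were called upregulated and 1 downregulated, against 10.3% and 4.34% of all genes, with a median of 0.15. Those called upregulated included CCNG1 at 1.49, PPM1D at 2.05 and RRM2B at 2.38 (log2, edgeR adjusted p = 0.0126, 0.0112 and 0.0249). CCNG1 lost its call with the GC correction (0.91) and PPM1D with the block and the GC correction together (1.75). RRM2B lost it under 8 of 16 alternatives.

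The nearest tested genes around the 7 were looked at as well. Some lay far off, such as those to the right of SUGCT (2048510 bases) and of SULF2 (PREX1, 837636 bases). Among 17 tested protein-coding genes that overlap a member or lie nearest on either side, none was called in A549, where 3.18% of all genes were called upregulated and 3.01% downregulated, so the count is near that share. Their log2 fold changes ran from -0.66 to 0.97 with a median of 0.16. The highest were PREX1 beside SULF2 at 0.97 (edgeR adjusted p = 0.223) and EXT2 beside CD82 at 0.92 (edgeR adjusted p = 0.277). TSPAN18, another tetraspanin gene, lies 106102 bases to the right of CD82 and was at 0.80 (edgeR adjusted p = 0.176). No other gene in the table had the same counts as a member.

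The genes most like each member across the 12 samples were named by Pearson's r of log2 CPM (11665 genes compared), a description in which all genes share the same libraries. For most members the treated A549 samples weigh most. BLNK and NECTIN4 had at most 1 count in every other sample, so genes read mainly in treated A549 cells come out with a high r. For SULF2, at 82.1 CPM in A549 and 0.145 CPM in H1792 with DMSO, the gap between the lines weighs as well. SORCS2 was closest to SULF2 (r = 0.999), with 13.8 and 54.1 CPM in A549 and no count in H1792, and LYNX1 followed (r = 0.997). FOLR3 and FXYD3 were closest to NECTIN4 (r = 0.999 and 0.995), and HPN was closest to BLNK (r = 0.995), followed by ENSG00000275565 (r = 0.989). COL7A1 was closest to PLXNB3 (r = 0.99) and, as PLXNB3 was, lower with RG7112 in H1792 on average (626 and 402 CPM). CFAP74 was the next for both PLXNB3 and CD82 (r = 0.962 for each), after DNHD1 for CD82 (r = 0.965). HMCN2 and RGMA were closest to SUGCT (r = 0.989 and 0.983). For PNMA8A, whose counts in H1792 rested on few samples, the highest were CCDC149 at 0.872 and DYRK3 at 0.86.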

How the data were processed

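The authors quantified paired-end, poly-A selected RNA-seq with kallisto v0.45.0 on Ensembl GRCh38.95 and deposited expected counts (estimated counts, whole numbers) per gene without normalization between samples. The labels give reads of 38 bp and RPMI-1640 for both lines, the paper's methods differ on both. How kallisto treated strand is not given in the sources used here. Samples were grouped by line and treatment from the labels, and nothing states that replicates were separate cultures, so p-values may measure technical spread. Members and gene lists were chosen with earlier results of these data known.

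Each line was fitted with edgeR 4.0.16 (R 4.3.3): filterByExpr (minimum count 10, minimum total 15), TMM, robust quasi-likelihood test, Benjamini-Hochberg adjustment, calls at adjusted p under 0.05 and absolute log2 fold change over 1. Differences between lines were an interaction over 12 samples. For single values in H1792 a two-sided exact permutation test was run on log2(CPM + 1). Ratios against groups with 1 to 3 counts carry exact 95% intervals, and the fold against a group at 0 is a bound at 3 counts. Named genes were the members, up to 3 called genes per list and line by p, and 14 genes fixed by name. GENCODE v29 held 18011 of the identifiers. Tests were checked on simulated data with a smaller spread than these data (biological coefficient of variation 0.345 in A549 and 0.27 in H1792). Their power and false calls at the real spread were not checked. Alternatives were DESeq2 1.42.0, limma-trend (limma 3.58.1), RLE size factors, library size only, 2 other filters, a replicate block, one fit over all 12 samples, no fold threshold, GC correction (loess, span 0.5) with and without the block, leaving out each sample, and a pseudocount of 0.1 CPM. Antisense and overlapping genes could share reads with CD82, SULF2, PLXNB3, BLNK, NECTIN4 and SUGCT. One B cell marker is not reported here.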

Additional observations from a re-analysis of the deposited data

Results flagged for a closer look

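The response to RG7112 differed between the lines for 20 of 37 fitted genes that the text or its naming rule takes from the lists, by the edgeR interaction test over the 12 samples (adjusted p from 5.2e-06 to 0.045). Most of the 37 were taken for a call in one of the lines, so their share is not set against the 21.8% of all genes that differed. Over the families of the 7 members as a whole, 18 of 88 fitted genes differed (20.5%), near the share of all genes. Values are log2 differences, A549 minus H1792. Among tetraspanins the difference was 3.59 for TSPAN10 and 3.86 for TSPAN33. Among plexins, neuropilins and semaphorins it was 1.37 for PLXNA3, 1.95 for PLXNB1, 1.98 for PLXNB2, 2.63 for PLXND1, 2.87 for SEMA3B and -1.48 for NRP1. Among heparan sulfate genes it was 0.98 for SDC3 and -2.14 for HS2ST1. NECTIN2 gave 0.78, the adaptor NCK1 gave -2.51 and DLST gave -4.04. Among p53 targets it was 2.61 for BBC3, 3.40 for CDKN1A, 2.60 for FDXR, 3.12 for MDM2 and 2.74 for TP53I3. The epithelial genes KRT19 and MUC1 gave 1.93 and 2.72. Of 16 alternatives, the difference was lost under 12 for CDKN1A, 10 for NRP1, 7 for PLXNB1, 5 for NCK1, 4 for NECTIN2 and 1 for HS2ST1. With the GC correction NECTIN2 was at 0.28, PLXNB1 at 1.31, HS2ST1 at -1.40 and NCK1 at -1.64, and with library size only NECTIN2 was at 0.37.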

How the results depend on the processing

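In A549 the log2 fold changes over all alternatives ranged from 3.75 to 4.05 for CD82, from 3.08 to 3.30 for SULF2 and from 4.89 to 5.50 for PLXNB3, and without 1 sample the ratio of counts ranged from 144 to 272 for BLNK, 30.7 to 67 for NECTIN4 and 27.1 to 55.1 for SUGCT, and the bound for PNMA8A from 12.6 (without DMSO replicate 2) to 24.9. Without the single DMSO sample that held counts, BLNK (replicate 2) and SUGCT (replicate 3) had no ratio. In H1792 PLXNB3 lost its call with library size only (log2 fold change -1.12), no filter (-1.36), the replicate block (-1.49), the GC correction (-0.86) and both together (-0.98), and ranged from -1.94 to -1.13 without 1 sample. CD82 in H1792 ranged from -0.06 to 0.22 without 1 sample, below 0 without DMSO replicate 3 or RG7112 replicate 2, and was at 0.36 with library size only, 0.40 with the GC correction and 0.41 with the block as well. Calls numbered 665 in A549 (310 to 526 without 1 sample) and 1450 in H1792 (920 to 1642), where they became 526 with the block and the GC correction and 3384 without a fold threshold. Differences between the lines numbered 2539 (1584 to 2978). Family genes called numbered 7 in A549 (3 to 6 without 1 sample, 4 with the block and the GC correction) and 11 in H1792 (7 to 11 without 1 sample, 7 with at least 10 counts in every sample, 5 with the block and the GC correction, 19 without a fold threshold). With the replicate block alone, calls numbered 612 in A549 and 995 in H1792. Deviations of samples with the same number correlated at 0.162, 0.079 and 0.327 in A549, where 4 of the 6 other pairings were below 0 (-0.157 to -0.265), and from -0.053 to -0.00339 in H1792. Not every same-number value passed 0.1, nor did every sample correlate best with its own number, so the numbers were not taken as pairs. With library size only, 86.1% of calls in H1792 were higher, against 70.3%, and 23% of the differences between the lines against 47.7%, with 58.4% in H1792 after the GC correction.

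Values near 0 changed sign. In A549 NECTIN2 was at -0.05 with the GC correction and -0.05 with the block as well, and without 1 sample it ranged from -0.01 to 0.21, CD81 from -0.72 to 0.00, CD9 from -0.02 to 0.26 and PLCG2 from -1.17 to 0.05. In H1792 CD81 was at 0.13 with the GC correction and 0.12 with the block as well, CD9 at 0.11 with library size only, and MDM2 at 0.22 with library size only, 0.03 with at least 10 counts in every sample, 0.02 with limma-trend and 0.01 with the block, and without 1 sample MDM2 ranged from -0.33 to 0.23 and CDKN1A from -0.31 to 0.99. The causes were not tested. Low counts leave wide intervals for BLNK, NECTIN4 and SUGCT and a bound for PNMA8A in A549, and 5 of the 7 genes did not pass the filter of the edgeR test in H1792. With the block and the GC correction together, SEMA3C (1.52) and TSPAN33 (-2.08) in H1792 were no longer called.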
